A study of Mus musculus with 11 samples.

Results

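The genes described here encode the factors that build the respiratory chain of mitochondria. They were chosen by gene symbol: 34 names on a list, from Acad9 to Pdss2, and each symbol made of Ndufaf and a single digit, which the table held for Ndufaf1 to Ndufaf4. All 38 genes were found among the 36666 genes listed, and 36 of them had enough counts to be tested. By role, 9 are needed for complex I, 2 for complex II, 3 for complex III, 12 for complex IV, 3 for ATP synthase and 9 for the synthesis of coenzyme Q. Messenger RNA was sequenced from the cerebrum of 11 male mice on the C57/Bl6 strain, aged 1 year. The 7 Polg mutator mice are homozygous (D257A/D257A) for a knock-in allele that removes the proofreading function of the mitochondrial DNA polymerase, so the mutation is present in every cell. The 4 control littermates were 3 WT/WT mice and 1 WT/D257A mouse, which carries the mutant allele on 1 chromosome. The comparison asks whether the messenger RNA of these factors differed between mutator and control cerebrum.

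The respiratory chain is built from subunits encoded by the nucleus and by mitochondrial DNA, and most of its complexes cannot form without helper proteins that are absent from the finished enzyme. Assembly factors chaperone subunits, insert them into the inner membrane, and deliver copper, haem, flavin and iron-sulfur clusters. Coenzyme Q, the lipid that carries electrons from complexes I and II to complex III, is made in the same membrane by a set of enzymes encoded by the Coq and Pdss genes. Inherited loss of many of these genes causes mitochondrial disease in humans, often with damage to the brain.

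The deposited gene counts summed to between 28249345 and 121182250 per mouse. Levels are given as CPM, counts scaled to library size with edgeR's TMM factors. Differences are log2 fold changes, mutator minus control, and SE is their standard error. In mutator mouse 248, the counts came to 3.00 per aligned read listed by the authors, against 0.744 to 0.775 in the other 10 mice. The tests of genes and exon bins were therefore also run without it. Polg itself averaged 66.1 ± 3.0 CPM in 4 controls and 63.9 ± 4.2 CPM in 7 mutators (SD), but a point mutation leaves the count of its gene uninformative about the genotype. None of the 34 cell type markers found was at 0 in all mice, and the summed level of 4 neuronal markers ranged from 4313 to 4654 CPM in the controls and from 4200 to 4610 CPM in the mutators. Among these markers, 1 gene of platelets, Ppbp, was higher in the mutators by edgeR's test (adjusted p = 0.00483). An adjusted p-value under 0.05 was found for 1.24% of all genes. Unadjusted p-values under 0.05 were found for 12 of the 34 markers, 35.3%, against 15.8% of all genes. By type, they were 4 of 5 for microglia and 2 of 5 each for oligodendrocytes, endothelium and choroid plexus. For astrocytes and blood they were 1 of 5 each, and for neurons 0 of 4. The log2 fold change was below 0 for all 5 microglial markers and above 0 for all 5 blood genes. The 5 microglial markers summed to 186 to 236 CPM in the controls and 174 to 206 CPM in the mutators, and the 5 blood genes to 51.9 to 180 CPM and 80.1 to 224 CPM. In RNA of whole tissue, fewer cells of a type and less RNA per cell cannot be told apart, and the part of cell composition in the values below was not tested.

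None of the 36 tested members passed the test. With edgeR's quasi-likelihood test and Benjamini-Hochberg adjustment over all 17983 genes tested, 0 members had an adjusted p-value under 0.05, where 1.24% of all genes did. At an unadjusted p-value below 0.05, 1 member remained, 2.78% of those tested, against 15.8% of all genes. The same gene, Coq4, was the only member whose control and mutator mice did not overlap, which held for 2.62% of all genes. DESeq2, applied to the same counts, gave 1 member with an adjusted p-value under 0.05, again Coq4. That is 2.78% of the 36 members to which DESeq2 gave an adjusted p-value, against 3.7% of all such genes.

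The differences were small in either direction. The log2 fold change was below 0 for 23 members and above 0 for 13, that is, below 0 for 63.9% of them and for 49.6% of all genes. Its median was -0.026 over the members and 0.0014 over all genes tested. Without control mouse 246 the median over the members was -0.0076. The median size of the log2 fold change, regardless of sign, was 0.050, and 23 members had a log2 fold change smaller than its own standard error. Among the 12645 genes whose mean level lay in the range of the members, 0.930 to 107 CPM, the median size was 0.079, 16.2% had an unadjusted p-value under 0.05 and 1.297% an adjusted one. The median standard error was 0.063 for the members and 0.073 for the genes in this range. Cox16 alone sets the lower end of the range, as the next lowest member, Nubpl, averaged 5.29 CPM. The range holds 12645 of the 17983 genes tested, and within it levels were not matched to those of the members.

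How much change these data leave possible is given by the intervals of the fold changes. The point estimate was within 5% of the control level for 25 members and within 10% for 32. The 95% confidence interval stayed within 20% of the control level for 31 members and within 25% for 33. The 3 exceptions were Nubpl, Cox11 and Cox16, which had the lowest mean CPM of the tested members. Over all 36 members, the lowest bound was a change of -28.9%, for Cox16, and the highest was 27.1%, for Nubpl. The spread between mice behind these intervals, as a coefficient of variation, had a median of 4.97% over the members in the controls and 6.22% in the mutators. The plot of fold changes by role shows each estimate with its interval.

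**Figure D1:**
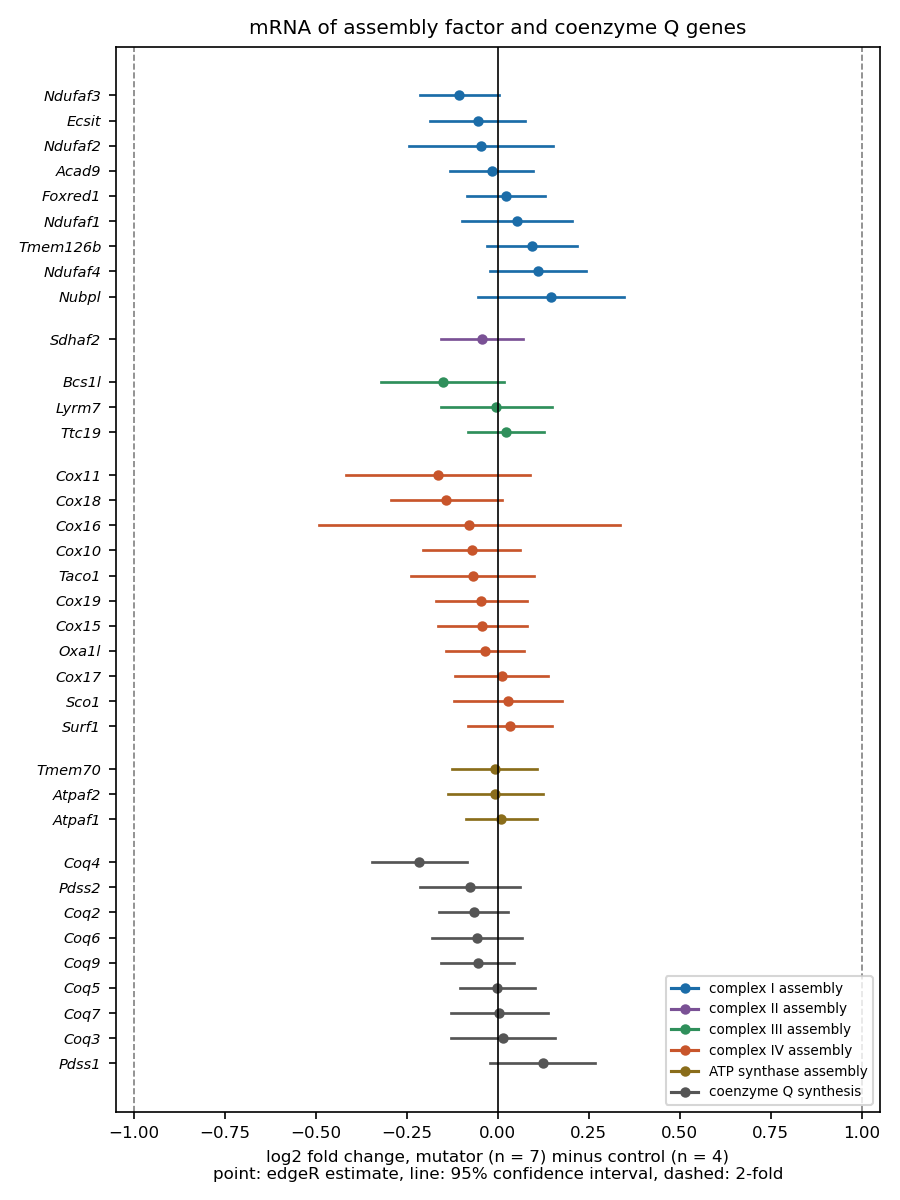
The log2 fold change of each of the 36 tested members (mutator minus control, x axis) is drawn as a point with its 95% confidence interval as a line, grouped and colored by the role of the gene. All intervals lie between the dashed lines at a 2-fold change, and only that of Coq4 does not reach 0.

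Coq4 had the largest estimate relative to its error. Its product is needed for the assembly of the enzymes that make coenzyme Q and for a step on the ring of the molecule. The gene (ENSMUSG00000026798) lies on the plus strand of chromosome 2 of mm9, from 29643013 to 29653455. In the controls it had 13.60, 13.62 and 14.8 CPM in the WT/WT mice 205, 239 and 246, and 15.2 CPM in the WT/D257A mouse 237. In the mutators the lowest value was 11.7 CPM, the median 12.4 and the highest 12.6. Every mutator mouse was thus below every control mouse, and the WT/D257A mouse was the highest of all 11. The means were 14.3 ± 0.81 CPM in the controls and 12.3 ± 0.39 CPM in the mutators (SD over 4 and 7 mice), a change of -13.9% with a 95% interval from -21.4% to -5.78%. On the log2 scale the change was -0.22 (SE 0.063, unadjusted p = 0.00243, edgeR adjusted p = 0.0889). Over 18 different alternatives of processing and of the mice included, the log2 fold change lay between -0.24 and -0.18 and the adjusted p-value between 0.0249 (DESeq2) and 0.336 (edgeR without mouse 237). Without mutator mouse 248 the log2 fold change was -0.22 (edgeR adjusted p = 0.118).

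The counts per exon bin, that is, per piece between annotated exon borders, show how the Coq4 difference was spread along the gene. These counts were deposited for the 7 mutator and the 3 WT/WT mice. Of 18 bins, 12 had enough reads to be tested. The mean level was lower in the mutators in all 12, with changes from -42.9% to -8.72%. The -42.9% was in bin 12, on 4 to 18 counts per mouse, and the next largest change was -17.1%, in bin 14. The groups did not overlap in 1 of the 12 tested bins. These bins come from the same libraries as the gene count and are not independent evidence. The share of the gene's reads in a bin was also tested, and no bin of Coq4 had an unadjusted p-value under 0.05, the lowest being 0.167. The first 3 bins had 0 counts in every mouse. In the annotation, 27.1% of the exonic bases of Coq4 also lie in exons of Trub2, which is read from the opposite strand. Trub2, which encodes a pseudouridine synthase, averaged 26.1 ± 0.53 CPM in 4 controls and 26.1 ± 1.38 CPM in 7 mutators (SD). Its log2 fold change was 0.00069 (edgeR adjusted p = 0.997).

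The other 8 members of the coenzyme Q group had log2 fold changes between -0.078 and 0.12, of which 5 were below 0. Pdss1 and Pdss2, which together make the isoprenoid tail, had estimates of opposite sign, 0.12 (edgeR adjusted p = 0.408) and -0.078 (adjusted p = 0.609). Coq2, which joins the tail to the ring, had the highest level per length of the group. Its values were 63.4, 63.0 and 68.9 CPM in WT/WT mice 205, 239 and 246 and 60.9 CPM in WT/D257A mouse 237. In the mutators they ran from 59.8 CPM through a median of 60.9 to 64.3 CPM. The groups overlapped, and the log2 fold change was -0.067 (SE 0.046, edgeR adjusted p = 0.502). The enzymes that modify the ring, the methyltransferases Coq3 and Coq5 and the hydroxylases Coq6 and Coq7, had log2 fold changes between -0.057 and 0.013. For Coq9, which binds the lipid and aids Coq7, it was -0.055. The interval of each of these 5 genes stayed within 20% of the control level.

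The complex I group was the only one with more estimates above 0 than below, 5 against 4, and a median of 0.023. Ndufaf1, Ecsit, Acad9 and Tmem126b encode partners in a membrane complex that builds the proton-pumping arm. Their log2 fold changes were 0.052, -0.055, -0.017 and 0.094. Ndufaf3 and Ndufaf4 encode proteins that bind each other early in assembly, and their estimates had opposite signs. Ndufaf3 had 22.7, 23.4 and 23.004 CPM in WT/WT mice 205, 239 and 246 and 23.6 CPM in WT/D257A mouse 237. In the mutators it had 20.6 CPM at the lowest, 21.6 at the median and 22.7 at the highest. The highest mutator values and the lowest control value nearly coincided, and the groups overlapped by 1 control mouse. The means were 23.2 ± 0.41 and 21.5 ± 0.96 CPM (SD over 4 and 7 mice), which gave a log2 fold change of -0.11 (SE 0.053, edgeR adjusted p = 0.334). For Ndufaf4 the log2 fold change was 0.11 (adjusted p = 0.408). Nubpl, which delivers iron-sulfur clusters, had a log2 fold change of 0.15 (SE 0.096, adjusted p = 0.489). Foxred1, a flavoprotein, and Ndufaf2, a late chaperone, had log2 fold changes of 0.023 and -0.047.

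In the complex II group only Sdhaf2 could be tested. Its product attaches the flavin to the largest subunit. It had 33.9, 33.3 and 33.4 CPM in WT/WT mice 205, 239 and 246 and 33.7 CPM in WT/D257A mouse 237. In the mutators it ranged from 29.6 CPM to 35.6 CPM, with a median of 32.7. The mutator mice lay on both sides of the controls and were spread more widely, with a coefficient of variation of 6.40% against 0.80%. This gave a log2 fold change of -0.044 (SE 0.054, edgeR adjusted p = 0.745).

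Among the 3 factors of complex III, Bcs1l had the largest estimate. It encodes the ATPase that inserts the Rieske iron-sulfur protein. Its values were 14.8, 15.3 and 15.8 CPM in WT/WT mice 205, 239 and 246 and 16.8 CPM in WT/D257A mouse 237, and 10.9 CPM at the lowest, 14.7 at the median and 15.5 at the highest in the mutators. The lowest value belonged to mouse 207, which stood apart from the other mutators, and the rest overlapped with the controls. Its log2 fold change was -0.15 (SE 0.081, edgeR adjusted p = 0.376), and -0.096 (adjusted p = 0.730) was the value nearest to 0 over the alternatives. Ttc19, which clears fragments of the Rieske protein, had 110, 108 and 105 CPM in WT/WT mice 205, 239 and 246, 101 CPM in WT/D257A mouse 237 and 98.9, 109 and 116 CPM as the lowest, median and highest mutator values. Mutators lay on both sides of the controls, with a log2 fold change of 0.023 (SE 0.050, edgeR adjusted p = 0.871). Lyrm7, a chaperone of the same protein, had a log2 fold change of -0.0038 (SE 0.073).

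The 11 tested factors of complex IV had log2 fold changes between -0.16 and 0.035, 8 of them below 0, with a median of -0.045. Cox18, which moves a part of the Cox2 subunit across the inner membrane, had the lowest p-value of the group. Its levels were 10.1, 10.7 and 10.3 CPM in WT/WT mice 205, 239 and 246 and 11.3 CPM in WT/D257A mouse 237, and 8.70, 9.74 and 10.5 CPM as the lowest, median and highest mutator values. A single mutator mouse, 236, exceeded any control, and it lay above control mice 205 and 246. Its log2 fold change was -0.14 (SE 0.073, edgeR adjusted p = 0.356). Surf1, whose loss in humans causes Leigh syndrome, had the highest level per length of all members. Its values were 42.17, 42.17 and 46.7 CPM in WT/WT mice 205, 239 and 246 and 44.1 CPM in WT/D257A mouse 237, and 41.3, 44.9 and 50.3 CPM as the lowest, median and highest mutator values. Mutators lay on both sides of the controls, and the log2 fold change was 0.035 (SE 0.056, edgeR adjusted p = 0.813).

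The remaining factors of complex IV fall into those that supply metal, those that supply haem and those that act on the membrane. Of the copper factors tested, Cox17, Sco1 and Cox19 had log2 fold changes of 0.010, 0.027 and -0.045. Cox11, which inserts copper into the Cox1 subunit, had the estimate farthest from 0 in the group, -0.16, but with a standard error of 0.12 (adjusted p = 0.543). Cox10 and Cox15, the enzymes that make haem A, had -0.073 and -0.042. Oxa1l, which inserts proteins into the inner membrane, had -0.036, and Taco1, which activates the translation of Cox1, had -0.070. Cox16 had -0.078 with a standard error of 0.20, on counts of 26 to 97 per mouse.

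The 3 factors of ATP synthase had the smallest differences of any role group. Atpaf1, a chaperone of the beta subunit, had 75.3, 72.5 and 73.0 CPM in WT/WT mice 205, 239 and 246 and 72.7 CPM in WT/D257A mouse 237. In the mutators it had 68.1 CPM at the lowest, 74.7 at the median and 79.7 at the highest, so that mutators lay both below and above all controls. Its log2 fold change was 0.0092 (SE 0.047, edgeR adjusted p = 0.9499), with an interval from -5.92% to 7.65% of the control level. Atpaf2, a chaperone of the alpha subunit, and Tmem70, which aids the assembly of the membrane ring, had log2 fold changes of -0.0068 and -0.0092.

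**Figure D2:**
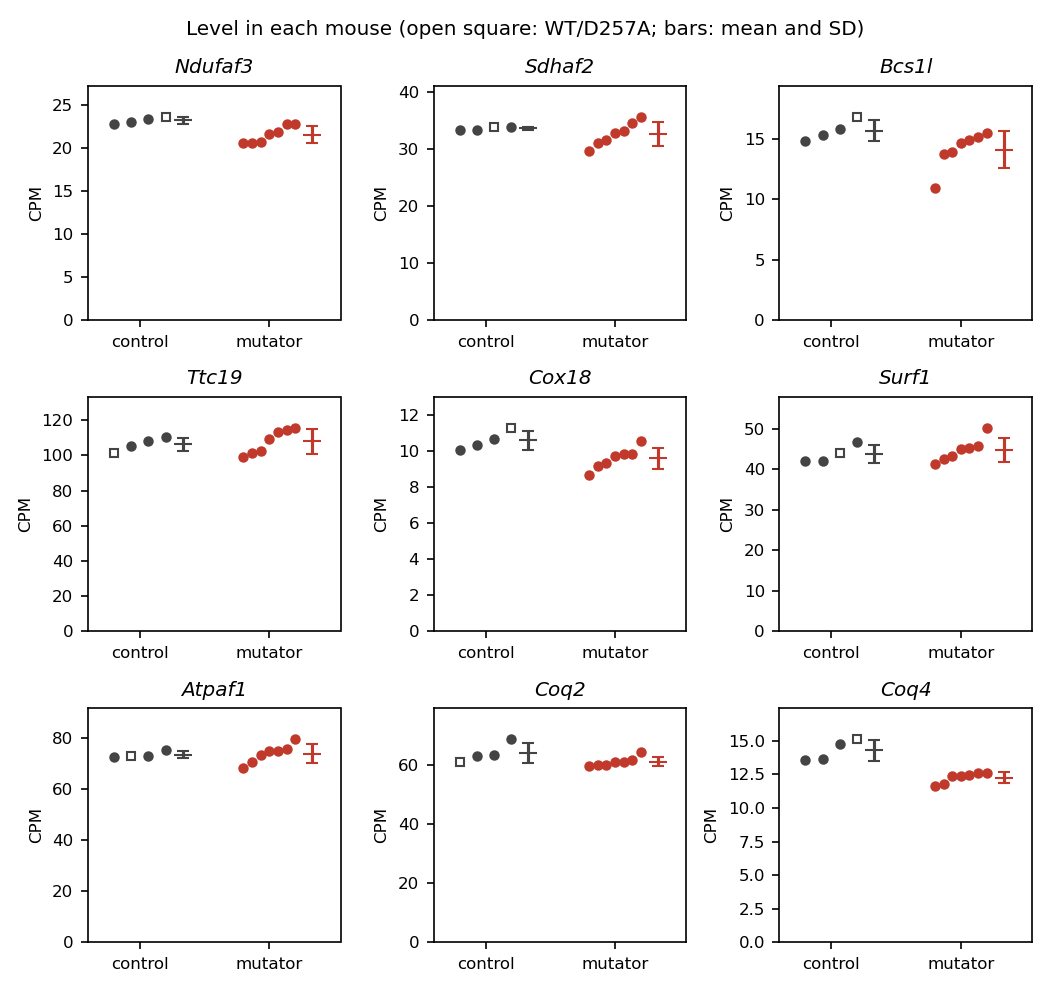
Levels in CPM (y axes, each starting at 0) are drawn for the 9 genes given mouse by mouse, with 1 point per mouse, an open square for the WT/D257A control and bars for the mean and SD of 4 controls and 7 mutators. The groups are separate for Coq4 and overlap for the other 8 genes.

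Taken mouse by mouse, the members as a whole barely differed. The median over the 36 tested members of the log2 level relative to the control mean ran from -0.026 to 0.028 in the 4 controls and from -0.053 to 0.0072 in the 7 mutators. The ranges overlapped, and none of the 11 mice was far from 0. No mouse was extreme for most members. Mutator mouse 207 had the highest value of all mice for 7 members and the lowest for 8, and WT/D257A mouse 237 had the highest for 8 and the lowest for 3. Against the 3 WT/WT mice, the WT/D257A mouse was above all of them for 10 members, below all for 11 and among them for 15.

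**Figure D3:**
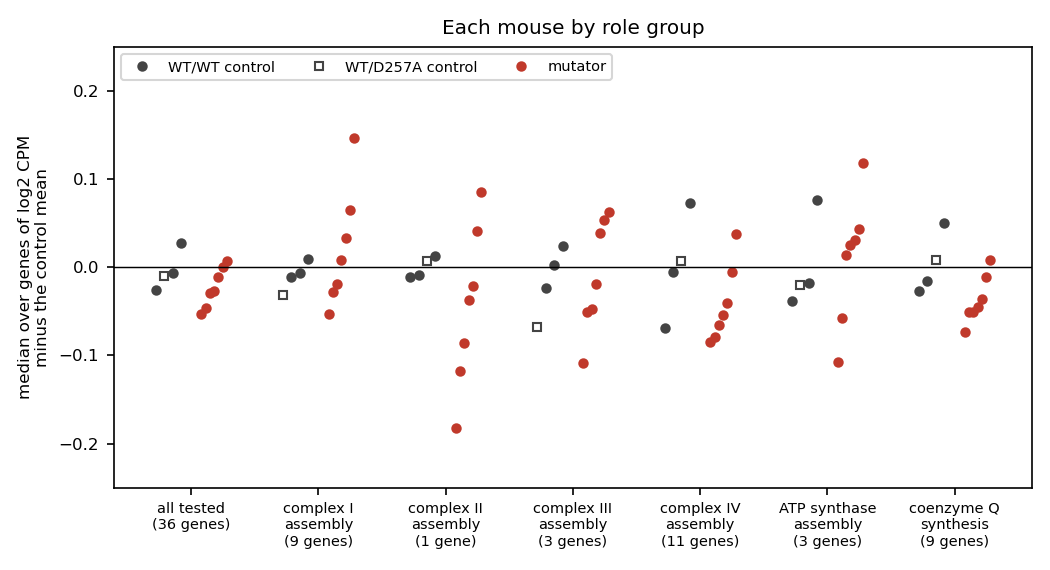
The median over the tested genes of each role group of the log2 CPM minus the control mean (y axis) is drawn with 1 symbol per mouse, for all 36 tested members and for the 6 role groups (x axis). Over all tested members the controls ran from -0.026 to 0.028 and the mutators from -0.053 to 0.0072, and mice of both groups overlap in each role group.

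Levels were compared between genes as CPM per kilobase of exon that no other gene shares, averaged over the 11 mice. On this scale the tested members spanned a 48.1-fold range, from 0.582 for Cox16 to 27.99 for Surf1, with a median of 7.38. Whether reads on shared bases were counted is not stated. Of 40 protein-coding genes with all exonic bases shared, 39 (97.5%) had no count in any mouse, against 9.76% of the other genes. Per kilobase of all exons, a scale that presumes such reads were counted, the range was 103.9-fold, from 0.248 for Cox16 to 25.8 for Surf1. After Surf1 came Coq2 with 23.7, Ttc19 with 22.96 and Atpaf1 with 22.8. The median per role group was highest for ATP synthase, 17.7 on either scale. It was lowest for coenzyme Q, 5.52, per kilobase of unshared exon and for complex IV, 5.27, per kilobase of all exons, where coenzyme Q had 5.43. Members that work as partners could differ: Sco1 had 2.45 and Cox17, which hands copper on to it, 5.35.

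Sdhaf1 and Cox16, which had the lowest levels, and Sco2, which had no count, overlap other genes in the annotation. The library kit does not mark strand, so reads from exons that overlap on opposite strands cannot be told apart. Of the 38 members, 16 share exonic bases with another gene, and 5 share over 25% of them. Sco2 delivers copper to complex IV. It had 0 gene counts in each of the 11 mice, and 0 in its only exon bin in the 10 mice with such counts. All of its exonic bases lie within exons of Ncaph2, a condensin subunit gene on the opposite strand, which had 88.2 CPM in the controls and 83.5 CPM in the mutators. Among protein-coding genes, 40 have all exonic bases shared with exons of another gene, and 39 of them (97.5%) had no count in any mouse, against 9.76% of the other genes. The 0 therefore gives no level for Sco2. Sdhaf1, which protects an iron-sulfur subunit of complex II, had 2 to 9 counts per control mouse and 1 to 14 per mutator mouse, with 65.9% of its exonic bases shared with E130208F15Rik. In the exon bin files, its single bin held counts of 32 to 162 per mouse. Cox16 shared 57.4% with Synj2bp, which lies on the same strand, so this overlap does not depend on the kit. Cox11 shared 48.3% with Tom1l1 on the opposite strand.

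**Figure D4:**
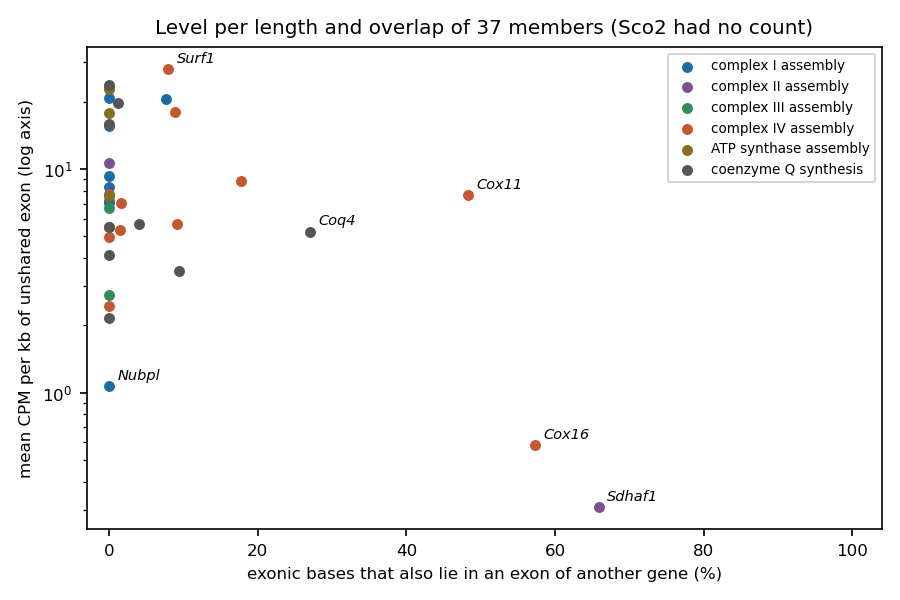
The mean level over 11 mice in CPM per kilobase of unshared exon (y axis, log scale) is drawn against the percentage of exonic bases that another gene shares (x axis) for 37 members, colored by role. Sdhaf1 and Cox16, with 65.9% and 57.4% shared, have the lowest levels, and Sco2, with no count, is not drawn.

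A gene that starts within 1000 bases on the opposite strand, head to head with the member, was found for 10 of the 36 tested members (27.8%) and for 14.1% of all tested protein-coding genes. Together with the genes that share exons, the members had 23 such neighbors that were tested. Of these, 0 had an edgeR adjusted p-value under 0.05, where 1.24% of all genes did. The lowest p-value among them was that of Gm16845, which shares exonic bases with Ecsit. Its log2 fold change was 0.61 (SE 0.26, edgeR adjusted p = 0.246), on means of 0.611 CPM in controls and 0.971 CPM in mutators.

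Short motifs known from promoters of mitochondrial genes and from promoters in general were counted near the starts of the members, as a description with no test. RefSeq windows on GRCm38.p6, from 250 bases before to 50 bases after a start, were found for 33 members (36 windows) and numbered 32851 in all. The ETS motif CCGGAAG, searched on both strands like the others, was in 38.9% of the members' windows, in 8.86% of all windows and in 14.0% of those of tested genes. The YY1 motif AAGATGGCG was in 13.9%, 1.40% and 2.33% of these windows, and the NRF1 motif GCGCATGCG in 5.56%, 1.75% and 3.001%. The palindrome CTCGCGAG was in 5.56%, 0.919% and 1.53%, and CCAAT in 44.4%, 37.4% and 37.2%. TATAAA was in 5.56%, 13.6% and 7.87%, and TCAAGGTCA, bound by estrogen-related receptors, in 0%, 0.423% and 0.308%. None of these motifs contains another, though a pair can overlap in a window. The windows of the tested genes are the closer comparison, as they too belong to genes expressed in this tissue. The stretches below read 5′ to 3′ on the strand of the gene. They show matches that lie, with 10 bases on either side, wholly before the start. These are the 6 ETS matches on either strand and the 2 NRF1 matches on the strand of the gene. NRF1 matches on the other strand are not listed or marked. Capitals mark the motif, and CTTCCGG is the ETS motif read on the other strand.
Bcs1l, chr1:74588232-74588258, plus strand: gtgggtgtggCCGGAAGtagatgcagc
Cox10, chr11:64079483-64079509, minus strand: gcgctgggagCCGGAAGtgacaagagg
Ndufaf1, chr2:119662836-119662862, minus strand: gggaccacaaCCGGAAGcgtggcgaac
Sco1, chr11:67052615-67052641, plus strand: cctccttcggCTTCCGGcagaagcgga
Sdhaf2, chr19:10525351-10525377, minus strand: ccccgccctcCTTCCGGccccgccggc
Pdss2, chr10:43221358-43221384, plus strand: catctctcgcCTTCCGGtcatcactga
Ndufaf4, chr4:24897960-24897988, plus strand: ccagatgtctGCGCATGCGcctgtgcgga
Ttc19, chr11:62281432-62281460, plus strand: atgcgtcatcGCGCATGCGgactggcggg
The log2 fold changes of the 6 genes with these ETS matches ran from -0.15 for Bcs1l to 0.052 for Ndufaf1. In all, 13 members had the ETS motif in a window. Over those of the 13 that were tested, the log2 fold changes ran from -0.15 for Bcs1l to 0.12 for Pdss1. No window of Coq4 held any of the 7 motifs. A match is a description of the letters, and binding was not measured.

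Use of exons within the members was also compared, with limma's voom and diffSplice, in the 7 mutator mice against the 3 WT/WT mice. Of 632 exon bins listed for the members, or for annotation groups that merge a member with a neighbor, 471 could be tested. By limma, 0 of them had an adjusted p-value under 0.05, where 0.0121% of all 206930 bins did. Unadjusted p-values under 0.05 were found for 8 member bins (1.70%), against 2.66% of all bins. The lowest adjusted p-value was 0.8286, in Tmem70. With edgeR's diffSpliceDGE, other filters or any of the 10 mice left out, 0 member bins passed and between 4 and 21 had an unadjusted p-value under 0.05.

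Other genes of the same pathway were taken from lists, as a background for the members. Of 29 further assembly factor genes, 22 were found and tested. By edgeR, 0 of these had an adjusted and 0 an unadjusted p-value under 0.05, against 1.24% and 15.8% of all genes. Their log2 fold changes were above 0 for 10 and below 0 for 12, with a median of -0.0042. The lowest p-value was that of 2900010M23Rik, matched to the complex III factor Uqcc2, with 40.4 ± 1.6 and 37.3 ± 2.4 CPM in controls and mutators (SD over 4 and 7 mice, log2 fold change -0.11, edgeR adjusted p = 0.324). Of 28 genes for haem, iron-sulfur clusters and metal carriers, edgeR gave 0 with an adjusted and 5 with an unadjusted p-value under 0.05. The latter are 17.9% of them, against 15.8% of all genes. Their log2 fold change was below 0 for 22, 78.6%, against 49.6% of all genes, with a median of -0.072. The lowest p-value among them was that of Fdxr, the reductase that feeds electrons into cluster synthesis, with a log2 fold change of -0.23 (SE 0.077, edgeR adjusted p = 0.137).

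The nuclear subunits that the assembly factors put together were tested in the same fit. Of 76 genes, 1 passed the test, where 1.24% of all genes did. It was Atp5d, the delta subunit of ATP synthase, with 127 ± 10.2 CPM in controls and 107 ± 7.9 CPM in mutators (SD over 4 and 7 mice). Its log2 fold change was -0.24 (SE 0.059, edgeR adjusted p = 0.0462). Unadjusted p-values under 0.05 were found for 18 subunit genes, 23.7% of them, against 15.8% of all genes and 1 of 36 assembly factor genes. The log2 fold change was below 0 for 65 of the 76, 85.5%, against 49.6% of all genes, with a median of -0.074. No subunit gene passed without any one of mice 207, 211, 236, 237, 239, 240, 246 and 248. The difference between these lists was not tested.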

How the data were processed

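Poly(A)+ RNA of the cerebrum of 11 mice was sequenced as paired ends with a kit that does not mark strand. The authors used mm9 as reference, aligned with TopHat2 2.0.6 and Bowtie2 2.0.2.0, counted them on Ensembl genes with HTSeq 0.5.3p9 and deposited the counts without normalization, per gene for all mice and per exon bin for 10. Read totals in a table the authors deposited were used only to compare depths. Tables of DESeq and DEXSeq comparisons, with fold changes, p-values and group means, were not used. The overlap mode of HTSeq and the pool of each library are not given in the sources used here.

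For genes, the quasi-likelihood test of edgeR 4.0.16 was applied (R 4.3.3; filterByExpr, TMM factors, robust fit, Benjamini-Hochberg over all genes tested, threshold 0.05), the WT/D257A mouse being counted as a control. Overlap of the groups was read on log2 CPM with a prior count of 2. Standard errors and 95% intervals were derived from the F statistic. Exon bins were tested with limma 3.58.1 (voom, diffSplice). Alternatives were DESeq2 1.42.0, RLE and upper-quartile factors, a minimum mean count of 10 or no filter, a covariate for the log2 total, dropping mitochondrial genes or the WT/D257A mouse, and leaving out each mouse in turn. The tests of genes and of exon bins were also run on simulated data, whose outcome is not given here. In an earlier simulation of these data, limma kept false calls under a limit that edgeR's diffSpliceDGE exceeded. Exonic lengths, overlaps and neighbors were taken from an Ensembl 65 annotation of mm9, a later release than the authors used. Promoter windows are from RefSeq, GRCm38.p6.

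The members, lists and motifs were chosen with earlier results of these data known. Values per mouse are given for members that passed the test or whose groups did not overlap and, per role group, for the member with the lowest p-value and the one with the highest level per kilobase. Each mouse is a separate animal, and the p-values set the difference between groups against the spread between mice. Litter and library pool are not known and could not be taken into account.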

Additional observations from a re-analysis of the deposited data

Results flagged for a closer look

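In 74 groups of values, the 36 tested members and Sdhaf1 in controls and in mutators, the gap between the most extreme mouse and its neighbor was compared with the range of the group. It exceeded Dixon's 95% critical value in 3 groups, where 1 in 20, that is 3.7, is the number chance gives. For Atpaf2, control mouse 246 was the highest, with 17.7 CPM against 16.2 to 16.4 CPM in the other controls, a gap of 0.859 of the range. For Coq3, the WT/D257A control mouse 237 was the lowest, with 14.3 CPM against 17.0 to 17.5 CPM, a gap of 0.837 of the range. For Bcs1l, mutator mouse 207 was the lowest, with 10.9 CPM against 13.7 to 15.5 CPM, a gap of 0.614 of the range. Over the 18 different alternatives, mice left out included, the log2 fold changes of these genes lay within -0.029 to 0.021 for Atpaf2, -0.047 to 0.040 for Coq3 and -0.18 to -0.096 for Bcs1l.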

How the results depend on the processing

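The count of members with an adjusted p-value under 0.05 was 0 in the main edgeR test and in its 17 different alternatives, and 1 with DESeq2 (Coq4). Leaving out the WT/D257A mouse and using WT/WT controls only are the same fit and count once. It was 0 with each mouse left out. The median log2 fold change of the members stayed below 0 throughout, from -0.030 to -0.0076 with each mouse left out. The sign of the log2 fold change was kept in all 18 alternatives for 24 members. Of all genes, 346 passed without a filter, 50 with WT/WT controls only and 616 with DESeq2, and from 50 to 412 with each mouse left out. Of the nuclear subunit genes, 0 passed with upper-quartile factors, 2 without a filter, 0 with a mean count of at least 10, 0 with WT/WT controls only, 2 with DESeq2, and from 0 to 6 with each mouse left out. Atp5d was the gene that passed in the main comparison, so the call of a subunit gene rests on the setting. The cause was not tested. No paired analysis, or one that takes litter into account, was possible because the labels give each mouse a number but no litter. The largest SEs were those of Cox16, Cox11 and Nubpl, the members with the lowest mean CPM among those tested, and the part of depth in them was not tested. Sdhaf1 and Sco2 have no test.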
